A study of Homo sapiens with 6 samples.

Results

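The promoters of the nuclear genes for oxidative phosphorylation were examined for acetylated histone H4 (H4ac) after knockdown of TIP60, a lysine acetyltransferase (gene symbol KAT5) that acetylates histone H4. Members were all genes whose symbol starts with NDUFA, NDUFB, NDUFC, NDUFS or NDUFV, UQCR, COX4 to COX8 or ATP5, together with SDHA, SDHB, SDHC and SDHD, leaving out NDUFA4L2 and the NDUFAF assembly factors. A gene entered when an H4ac region centred within 1000 bp of a start site carried its name, and its region with the most reads stood for it. This gave 67 genes among the 12005 with such a promoter region in either deposited table: 64 of 11541 in the table for the hairpin shTIP60-B and 66 of 11549 in that for shTIP60-C, with 63 in both. By name, 60 encode subunits of complexes I to V and 7 do not, being antisense or read-through transcripts or genes with subunit-like symbols (ATP5S, ATP5SL and COX7A2L).

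The cells were H1975, a human non-small cell lung cancer line, with a doxycycline-inducible hairpin against TIP60 (shTIP60-B or shTIP60-C) or a control hairpin (shControl). All had received 0.5 ug/ml doxycycline for 2 days, the controls included. Each of the 3 H4ac libraries and each of the 3 input libraries was 1 sample of its group, so no value below has a replicate error, and both knockdowns were set against the same control library. The tables hold no RNA or protein, so the knockdown of TIP60 itself was not measured in them.

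Oxidative phosphorylation passes electrons from NADH through complex I, or from succinate through complex II, to ubiquinone, then through complex III and cytochrome c to complex IV, which reduces oxygen. Complexes I, III and IV pump protons out of the mitochondrial matrix, and complex V, the ATP synthase, uses their return to make ATP. Complex II is encoded in the nucleus alone, whereas the others also hold subunits encoded in mitochondrial DNA, which the tables cannot report on as promoters of this kind. The nuclear subunit genes are broadly expressed, and the transcription factors NRF1, GABP (an ETS factor), YY1, SP1 and ERR alpha are known to bind promoters among them.

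Promoter sequences are shown for SDHA, SDHB and SDHD of complex II, the complex with the lowest median H4ac ratio with shTIP60-B, and for UQCRC2 and UQCRFS1 of complex III, which had the second lowest. Each runs from 250 bases before the RefSeq start to 30 bases after it (GRCh38.p14, from RefSeq), 5′ to 3′ on the gene's strand. They lie at chr5:218070-218349 on the plus strand (SDHA), chr1:17054003-17054282 on the minus strand (SDHB), chr11:112086623-112086902 on the plus strand (SDHD), chr16:21953111-21953390 on the plus strand (UQCRC2) and chr19:29213122-29213401 on the minus strand (UQCRFS1). Capitals mark matches to the motifs searched.
SDHA: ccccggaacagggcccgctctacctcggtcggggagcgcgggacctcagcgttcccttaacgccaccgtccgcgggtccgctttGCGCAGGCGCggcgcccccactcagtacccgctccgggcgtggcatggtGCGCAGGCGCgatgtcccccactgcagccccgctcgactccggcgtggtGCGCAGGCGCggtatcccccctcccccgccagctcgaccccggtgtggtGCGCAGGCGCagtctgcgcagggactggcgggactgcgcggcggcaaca
SDHB: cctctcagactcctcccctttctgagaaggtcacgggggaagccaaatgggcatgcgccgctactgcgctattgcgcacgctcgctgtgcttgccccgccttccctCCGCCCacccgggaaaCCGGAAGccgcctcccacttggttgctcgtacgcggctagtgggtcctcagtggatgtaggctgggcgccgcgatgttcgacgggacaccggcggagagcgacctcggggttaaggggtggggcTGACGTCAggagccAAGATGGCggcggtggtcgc
SDHD: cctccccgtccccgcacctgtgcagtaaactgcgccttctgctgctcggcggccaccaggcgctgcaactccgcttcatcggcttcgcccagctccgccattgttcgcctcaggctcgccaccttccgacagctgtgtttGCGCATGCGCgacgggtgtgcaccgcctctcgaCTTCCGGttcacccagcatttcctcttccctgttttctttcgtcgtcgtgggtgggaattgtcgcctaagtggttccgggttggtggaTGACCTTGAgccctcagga
UQCRC2: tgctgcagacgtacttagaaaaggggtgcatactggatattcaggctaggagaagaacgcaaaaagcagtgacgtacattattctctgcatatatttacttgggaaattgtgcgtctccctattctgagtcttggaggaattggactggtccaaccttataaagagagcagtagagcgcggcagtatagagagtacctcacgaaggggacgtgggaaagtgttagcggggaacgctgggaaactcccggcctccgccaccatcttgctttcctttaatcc
UQCRFS1: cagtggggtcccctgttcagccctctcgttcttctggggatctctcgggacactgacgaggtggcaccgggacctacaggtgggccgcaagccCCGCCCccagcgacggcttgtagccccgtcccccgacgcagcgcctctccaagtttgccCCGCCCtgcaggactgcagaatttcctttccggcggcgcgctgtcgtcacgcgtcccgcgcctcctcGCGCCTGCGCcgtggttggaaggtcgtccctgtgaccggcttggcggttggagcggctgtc

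The motifs were searched on both strands. They were a core NRF1 motif (GCGCA, any base, GCGC), its strict form with T as the free base, the ETS motif CCGGAAG, the YY1 motif AAGATGGC, the SP1 box GGGCGG, the cyclic AMP response element TGACGTCA and the ERR motif TCAAGGTCA. SDHA held 4 copies of the core NRF1 motif, SDHD held 1, in the strict form, beside 1 ETS and 1 ERR match, and SDHB held 1 ETS, 1 YY1 and 1 SP1 match and 1 cyclic AMP response element. UQCRFS1 held 1 core NRF1 and 2 SP1 matches, and UQCRC2 held none of these letters. A match is a description of letters, not a measured binding site.

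Over the promoter windows of 300 bases, RefSeq held 63 sequences for 55 members, 11 of them under another symbol. The core NRF1 motif was in 17.5% of these, against 10.0% of the 13673 promoters of all genes with an H4ac region and 5.78% of all 35116 promoters in the RefSeq table. The strict form, which is contained in the core motif, was in 4.76% against 2.02% and 1.24%. The YY1 motif was in 12.7% against 4.89% and 2.89%, and the ETS motif was in 23.8% against 17.7% and 10.3%. The cyclic AMP response element was in 6.35% against 2.9% and 1.85%, and the ERR motif was in 1.59%, the SDHD promoter alone, against 0.176% and 0.353%. The SP1 box was in 61.9% of member promoters, below the 66.7% of genes with an H4ac region and above the 45.0% of all promoters.

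By complex, the core NRF1 motif was in 2 of 3 promoters of complex II, 3 of 5 of complex III, 4 of 26 of complex I, 2 of 11 of complex V and 0 of 11 of complex IV. Among members, 18 of 55 (32.7%) had a RefSeq neighbour starting head to head with them, against 28.3% of 9507 genes with an H4ac region. They included SDHA with CCDC127, ATP5A1 with HAUS1, NDUFS3 with KBTBD4 and COX4I1 with EMC8. Reads at such promoters may belong to either gene.

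In the control library, H4ac at the members was close to that of other promoters. Per kb of region, the median was 74.5 control reads for the 64 members of the shTIP60-B table and 71.3 for all genes. Complex III was the highest, with a median of 111 reads per kb, followed by complex V at 73.1, complex IV at 68.9, complex II at 65.7 and complex I at 63.0. Within every complex the members spread further than these medians lie apart. NDUFA4, now known as a subunit of complex IV despite its symbol, stood highest at 349 reads per kb, followed by NDUFB9 of complex I at 211 and UQCRFS1, the Rieske iron-sulfur protein of complex III, at 162. The lowest were NDUFB8 at 27.2 and NDUFS8 at 28.4, both of complex I. These values depend on the region chosen: the control's own region downstream of the NDUFS8 start held 45.9 reads per kb. From the same control library, the highest member of the shTIP60-C table stood at 249.

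**Figure D1:**
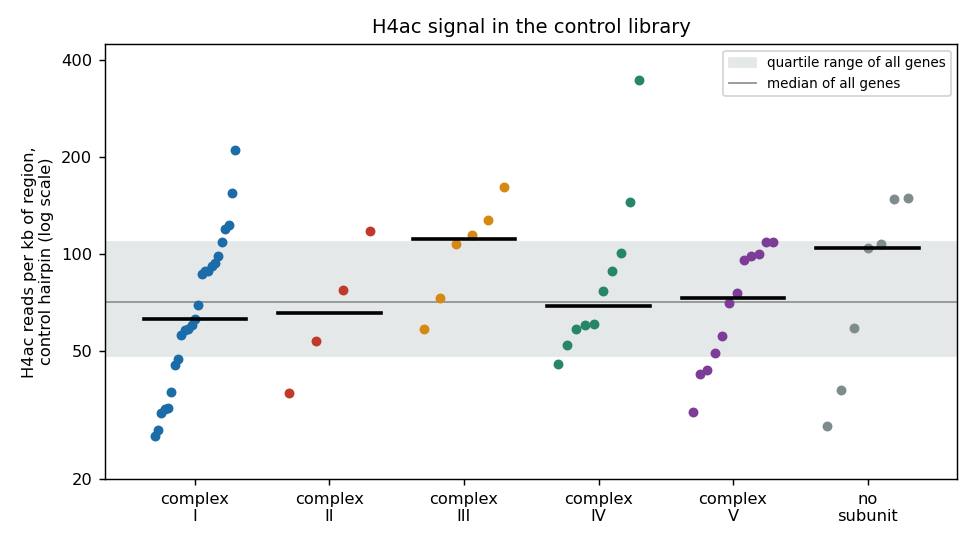
H4ac reads per kb of promoter region in the control library (log scale), 1 point per member, ordered by value within each complex; black bars are medians and the grey band runs between the quartiles of all genes. Complex III has the highest median of the 5 complexes, 111 reads per kb against 71.3 for all genes, and NDUFA4 is the highest point at 349.

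Regions at the members were also of ordinary size and place. Their median width was 1340 bp against 1380 bp for all genes in the shTIP60-B table, and 47 of 64 were centred at or after the start site, against 64.7% of all genes. Of these regions 59 of 64 were in both the knockdown and the control peak list, against 84.3% of all genes. With shTIP60-C 61 of 66 were, against 90.8%. In the shTIP60-B table the members nearest to the distance limit were NDUFS8 at 918 bp and COX6B2 at 879 bp inside it, and ATP5L2 at 5138 bp outside it. Of the genes that name a region at any distance, the others without a promoter region in either table were NDUFC1, UQCR10, UQCRHL, COX7A1, COX4I2 and ATP5J. Subunit genes that name no region at all were not listed. A region over such a start may carry the name of a neighbour, as for SDHD with shTIP60-C, so these starts may still hold H4ac. This was not tested.

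The ratio M is the authors' log2 of knockdown over control reads after their rescaling, from the authors' deposited table, and below 0 it is lower in the knockdown. The shTIP60-C library had more reads than the control at every member, and the rescaling shifted their log2 ratio by between -0.89 and -1.06, against 0.00 to 0.41 with shTIP60-B. A member had a median of 83.5 knockdown and 94.5 control reads with shTIP60-B, and of 183.5 and 92.0 with shTIP60-C. Counting alone gave the 95% interval of M a median reach of 0.45 to either side with shTIP60-B and 0.38 with shTIP60-C (Clopper-Pearson, exact, from the reads of the pair of libraries, covering counting error only). A promoter was called when its fold was at least 2 and the deposited p was at most 1e-05. That p compares 2 libraries and not 2 conditions.

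**Figure D2:**
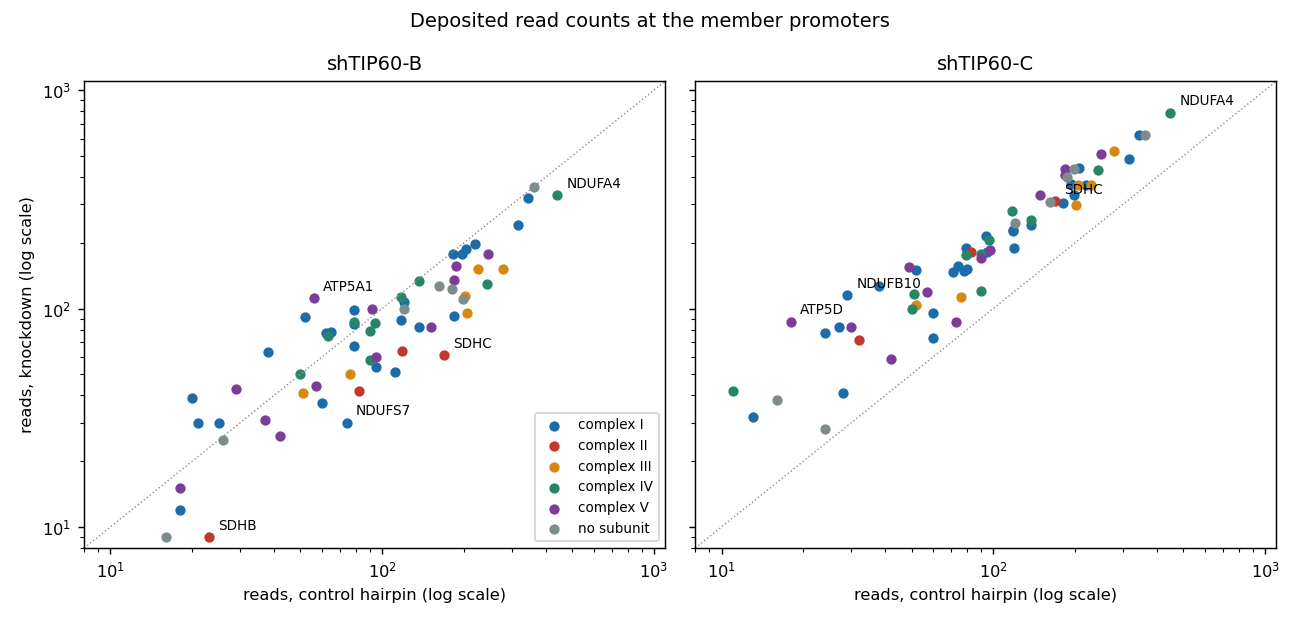
Deposited reads in the control (horizontal) and knockdown (vertical) library at each member promoter, both on log scales, coloured by complex; the dotted line marks equal raw counts before the authors' rescaling. With shTIP60-B the points lie on both sides of the line, SDHC and SDHB below it and ATP5A1 above, and with shTIP60-C all lie above it, from 28 to 788 knockdown reads.

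With shTIP60-B, 1 of 64 members fell, SDHC, against 3.53% of all 11541 genes, and 1 rose, ATP5A1, against 1.29%. At a fold of 1.5, without regard to p, 13 members (20.3%) were lower, against 22.6% of all genes, and 5 (7.81%) were higher, against 10.1%. Below 0 were 36 members (56.2%), against 58.8% of all genes, and the median M was -0.06 for members and -0.13 for all genes. These shares lie near the background, so they are no result about the members.

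With shTIP60-C no member fell, against 0.0433% of all 11549 genes, and none rose, against 0.147%. At a fold of 1.5, 3 members (4.55%) were lower, against 6.07%, and 7 (10.6%) were higher, against 6.21%. Below 0 were 27 of 66 (40.9%), against 49.9%, with a median M of 0.03 for members and 0.00 for all genes. Counts of 0 lie near such backgrounds and are no result about the members.

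**Figure D3:**
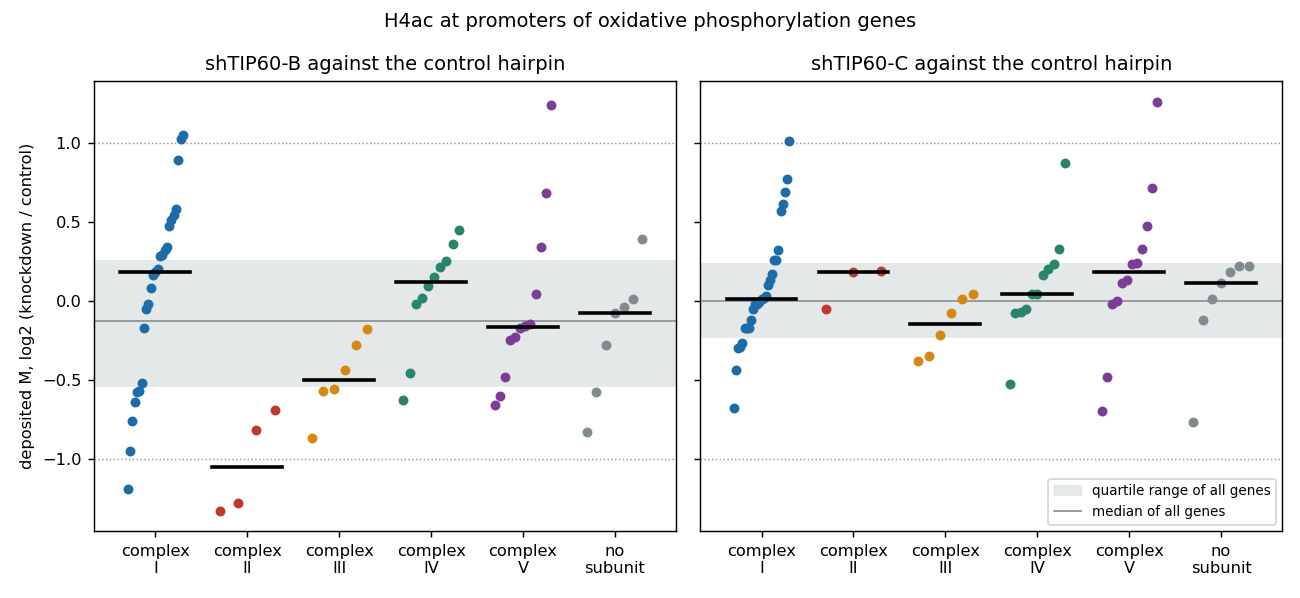
Deposited M of every member promoter with each hairpin, 1 point per gene ordered by value within its complex; black bars are medians, the grey band runs between the quartiles of all genes, the grey line is their median, and dotted lines mark 2-fold. With shTIP60-B all points of complexes II and III lie below 0 (medians -1.05 and -0.50), and with shTIP60-C the medians lie between -0.15 and 0.18.

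Complex II, succinate dehydrogenase, also a citric acid cycle enzyme, had the lowest median with shTIP60-B. By the region with the most reads, all 4 of its promoters were at least 1.5-fold lower, against 22.6% of all genes. The median M was -1.05, against -0.13 for all genes. SDHB entered through the control peak list alone, which favours lower values, and a second region of SDHA fell short of a fold of 1.5. With shTIP60-C the 3 measured had a median of 0.18. The members share no promoter and lie on chromosomes 1, 5 and 11.

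SDHC, a membrane anchor that helps to bind ubiquinone, was read at chr1:161283489-161284917 (hg19), over its start site. It had 61 reads with shTIP60-B against 169 in the control, M -1.28 (counting interval -1.73 to -0.85), a fall of 2.43-fold with a deposited p of 3.3e-10. A second region within it had 57 and 142 reads, M -1.13, so both peak lists gave a low knockdown count. With shTIP60-C its counts were 310 and 169, M -0.05 (-0.32 to 0.23).

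H4ac on chromosome 1 was low in general with shTIP60-B. The median M over regions of chromosome 1 was -0.34, and it was -0.66 in the 10 Mb window that holds SDHC. Relative to the chromosome SDHC stood at -0.94, and relative to its window at -0.62, neither of which is a fold of 2.

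SDHB, the iron-sulfur subunit, had few reads. With shTIP60-B its region at chr1:17380100-17380719 held 9 reads against 23, M -1.33 (-2.62 to -0.16), with a deposited p of 0.036. That region was in the control peak list alone, a way of entry that favours lower values. In the shTIP60-C table the same region held 48 against 23, M 0.06, and the larger region chosen there 72 against 32, M 0.19. At these counts the interval with shTIP60-B spans a difference close to none and one of several-fold.

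SDHA, the flavoprotein that oxidises succinate, held 42 reads with shTIP60-B against 82 at chr5:217729-219247, M -0.82 (-1.39 to -0.27). A second region within it had 33 and 52 reads, M -0.54 (-1.22 to 0.11), an interval that includes no difference. With shTIP60-C SDHA held 181 against 83, M 0.18 (-0.20 to 0.58). SDHD, the other membrane anchor, held 64 against 118 with shTIP60-B at chr11:111956855-111958379, M -0.69 (-1.15 to -0.24). In the shTIP60-C table the regions over that start are named for TIMM8B, an adjoining gene for a mitochondrial import protein. The SDHD region with shTIP60-B has the same promoter annotation as these, and how the reads divide between SDHD and TIMM8B was not tested. In the shTIP60-C table the control region over that start held 244 against 125, M 0.04. With shTIP60-B the same region held 69 against 125, M -0.66. So at each of the 4 starts the knockdown library was the lower after rescaling with shTIP60-B, and with shTIP60-C the 4 values lay between -0.05 and 0.19.

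Relative to their 10 Mb windows the 4 complex II promoters stood at -0.53 to -1.21 with shTIP60-B, with a median of -0.58, against -0.03 for all genes. Relative to their chromosomes the median was -0.88. Each of the 4 was below 0 after either centring, but so were the medians of all genes, -0.03 by window and -0.04 by chromosome. A fold of 1.5 is 0.58 in log2. After window centring SDHA at -0.53 and SDHD at -0.54 fell short of it, and SDHC at -0.62 and SDHB at -1.21 did not.

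Complex III, which passes electrons from ubiquinol to cytochrome c, had a median M of -0.50 with shTIP60-B. All 6 promoters were below 0, against 58.8% of all genes, but only 1 was at least 1.5-fold lower, against 22.6%. UQCRC2, a core protein of the matrix side, was the lowest at chr16:21963664-21965268, with 95 reads against 205 and M -0.87 (-1.24 to -0.51). Its deposited p was 6.9e-07 and its fold of 1.83 was short of the rule. Chromosome 16 was low in general, with a median of -0.49, and UQCRC2 stood -0.32 from its window median of -0.54.

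UQCRFS1 had 152 reads against 278, M -0.57 (-0.87 to -0.28), and stood -0.71 from its window, the farthest of complex III. UQCRQ, a small subunit that accompanies cytochrome b, had 114 against 201, M -0.56 (-0.90 to -0.22). UQCRB, which takes part in ubiquinone binding, had 50 against 76, M -0.44, UQCR11 had 152 against 226, M -0.28, and UQCRC1, the other core protein, had 41 against 51, M -0.18. The last 3 have counting intervals that include 0.

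With shTIP60-C the complex III promoters were closer to 0, with a median M of -0.15, the lowest of the 5 complexes with that hairpin. UQCRB had 113 reads against 76, M -0.38 (-0.81 to 0.06), and UQCRQ had 299 against 201, M -0.35 (-0.61 to -0.08). UQCR11 was at -0.22, UQCRC2 at -0.08, UQCRFS1 at 0.01 and UQCRC1 at 0.04. The hairpins share the control library, so the ratios of a promoter with one and the other are not independent.

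**Figure D4:**
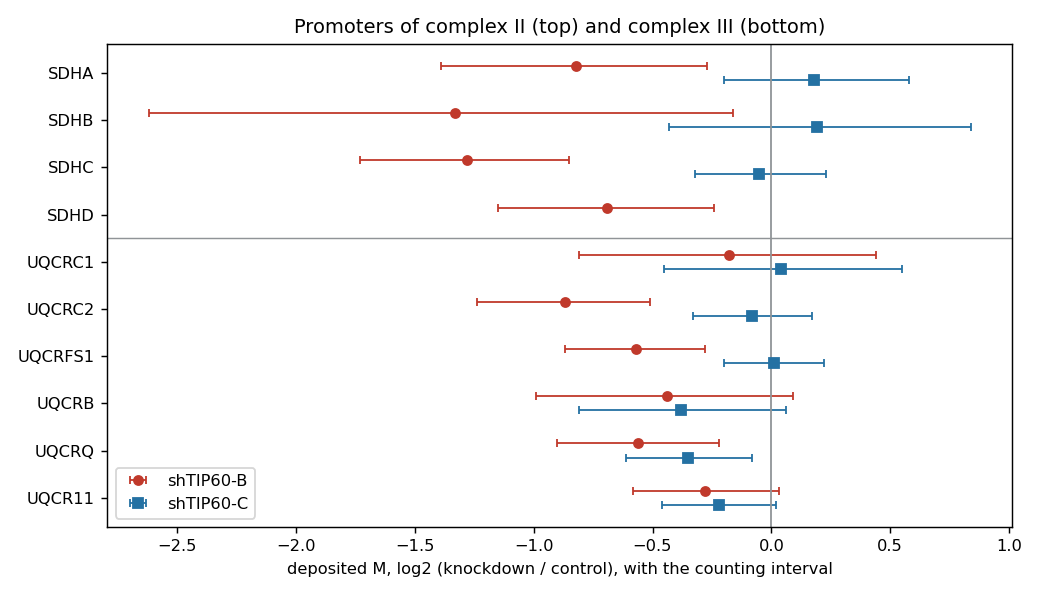
Deposited M with its counting interval at each promoter of complexes II and III, with shTIP60-B (circles) and shTIP60-C (squares); SDHD has no region of its name in the shTIP60-C table. At the regions with the most reads, the intervals of all 4 complex II promoters lie below 0 with shTIP60-B. A second SDHA region, not drawn, has an interval that includes 0. With shTIP60-C the intervals of the 3 measured include 0.

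Complex I, the NADH dehydrogenase and the largest complex, had the widest range with shTIP60-B. Its 25 promoters ran from -1.19 to 1.05 around a median of 0.18, with quartiles of -0.52 and 0.47. Of these, 4 (16.0%) were at least 1.5-fold lower, against 22.6% of all genes, and 3 (12.0%) at least 1.5-fold higher, against 10.1%, and none passed the rule. Both shares lie near the background.

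Among the core subunits, which carry the flavin and iron-sulfur clusters, NDUFS7 and NDUFS8 lay at opposite ends. NDUFS7 had 30 reads with shTIP60-B against 74 at chr19:1383275-1384535, M -1.19 (-1.85 to -0.56), with a deposited p of 0.00016. NDUFS8 had 91 against 52 at chr11:67798088-67799917, M 1.02 (0.52 to 1.54), with a deposited p of 2.2e-05. Both had a fold above 2 and missed the rule on p. The NDUFS8 value depends on the region: the control's own region there held 64 against 51, M 0.50, and the region upstream of the start 48 against 36, M 0.55.

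With shTIP60-C, NDUFS7 had 156 reads against 74, M 0.13, and NDUFS8 had 150 against 52, M 0.57 (0.11 to 1.06). NDUFV2, the smaller flavoprotein subunit, had 54 against 95 with shTIP60-B, M -0.64, and 181 against 95 with shTIP60-C, M -0.01. NDUFV1, which binds NADH, was at 0.08 and -0.27. NDUFS3 had a region of its name in the shTIP60-C table alone, with 215 reads against 94 and M 0.26; with shTIP60-B the region there is named for KBTBD4, its head-to-head neighbour, with 113 against 94 and M 0.52.

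The accessory subunits, which surround the core and are needed for its assembly or stability, covered the same range. NDUFA5 was the lowest of them with shTIP60-B, with 51 reads against 111 and M -0.95 (-1.46 to -0.46), and it was at 0.01 with shTIP60-C. NDUFA8 was the highest, with 39 against 20 and M 1.05 (0.24 to 1.90), and had 77 against 24 with shTIP60-C, M 0.69. The control's own NDUFA8 region held 33 against 22 with shTIP60-B, M 0.66 (-0.16 to 1.51), so the value depends on the region. NDUFB8 followed with 63 against 38, M 0.89 (0.29 to 1.52), and 127 against 38 with shTIP60-C, M 0.77 (0.24 to 1.34). The high values were at promoters with few control reads, where intervals are wide.

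With shTIP60-C, complex I had a median M of 0.01. Of its promoters, 4 of 27 (14.8%) were at least 1.5-fold higher, against 6.21% of all genes. At least 1.5-fold lower was 1 (3.7%), against 6.07%. Counts this small are no result about the complex. NDUFB10, an accessory subunit of the membrane arm, was the highest at chr16:2009542-2010777 with 115 reads against 29, M 1.01 (0.41 to 1.65), and a deposited p of 0.00202. Its smaller region with shTIP60-B had 30 against 21, M 0.58 (-0.27 to 1.46). Both NDUFB10 regions were in the knockdown peak list alone, a way of entry that favours higher values. NDUFA12 was the lowest with 73 against 60, M -0.68 (-1.19 to -0.16), and had 37 against 60 with shTIP60-B, M -0.57. NDUFB7 was in the shTIP60-C table alone, with 32 against 13 reads and M 0.26, and no region overlapped it in the other table. The promoter with the most reads in complex I, NDUFB9, had 622 against 344 with shTIP60-C, M -0.05, and 320 against 344 with shTIP60-B, M 0.29.

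Complex IV, cytochrome c oxidase, had the narrowest range among the larger complexes with shTIP60-B, from -0.63 to 0.45 with a median of 0.12. COX4I1, the ubiquitous form of subunit 4, was the lowest with 129 reads against 242, M -0.63 (-0.95 to -0.32). It lies on chromosome 16, and it stood -0.27 from its window and -0.14 from its chromosome. COX5B was the highest with 75 against 63, M 0.45 (-0.05 to 0.96). NDUFA4, with the most reads of any member, had 330 against 441 with shTIP60-B, M -0.02, and 788 against 447 with shTIP60-C, M -0.08.

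With shTIP60-C complex IV had a median M of 0.04. COX6A1 was the highest with 42 reads against 11, M 0.87 (-0.11 to 1.98), and no region overlapped it in the shTIP60-B table. COX7A2 was the lowest with 120 against 90, M -0.53 (-0.94 to -0.12), and had 58 against 90 with shTIP60-B, M -0.46. None of the 11 promoters was at least 1.5-fold lower, against 6.07% of all genes, and COX6A1 alone was at least 1.5-fold higher, against 6.21%, counts that lie near the background.

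Complex V, the ATP synthase, held the one promoter that rose. ATP5A1, the alpha subunit of the catalytic head, was read at chr18:43678271-43679402, centred 517 bp upstream of the start. It had 112 reads with shTIP60-B against 56 in the control, M 1.24 (0.77 to 1.73), a rise of 2.36-fold with a deposited p of 2.4e-08. With shTIP60-C the matching region had 119 against 57, M 0.11 (-0.36 to 0.59).

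ATP5A1 also had regions of other values within 1000 bp. The control's own upstream region had 106 reads against 55 with shTIP60-B, M 1.18. The region downstream of the start had 14 against 25, M -0.80 (-1.86 to 0.20), and with shTIP60-C 33 against 25, M -0.59. The mean M over its 3 regions with shTIP60-B was 0.54, which ends the call. Its chromosome and window medians were -0.15 and -0.25, so centring moved it to 1.39 and 1.49. HAUS1, a gene for a subunit of the augmin complex of the spindle, starts head to head with ATP5A1 in RefSeq, and how the reads divide between them was not tested.

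The remaining complex V promoters ran from -0.66 to 0.68 with shTIP60-B, with a median of -0.16 over all 12. ATP5E, the epsilon subunit of the central stalk, was the lowest with 82 reads against 151, M -0.66 (-1.06 to -0.26), and equalled its window median of -0.66 on chromosome 20. ATP5F1, subunit b of the outer stalk, was the second highest with 43 against 29, M 0.68 (-0.03 to 1.42). ATP5O, which joins the outer stalk to the catalytic head, had 26 against 42, M -0.60, and 59 against 42 with shTIP60-C, M -0.48.

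With shTIP60-C the median of complex V was 0.18. ATP5D, the delta subunit of the central stalk, was the highest of all members at chr19:1241568-1242405 with 87 reads against 18, M 1.26 (0.52 to 2.08), and a deposited p of 0.00127. Its smaller region had 15 against 18 with shTIP60-B, M -0.25 (-1.34 to 0.82), and 69 against 18 with shTIP60-C, M 0.92 (0.16 to 1.76). The 3 genes for the c subunit of the proton-driven ring had different values. ATP5G1 had 87 against 73, M -0.70 (-1.17 to -0.23), ATP5G2 had 509 against 248, M 0.13, and ATP5G3 had 155 against 49, M 0.71 (0.23 to 1.2). With shTIP60-B the same 3 were at -0.23, -0.15 and -0.16.

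The 7 members that encode no subunit by name had medians of -0.08 with shTIP60-B and 0.11 with shTIP60-C. COX7A2L, which joins complexes III and IV into larger assemblies, had 111 reads against 198 with shTIP60-B, M -0.58, and 435 against 198 with shTIP60-C, M 0.22. ATP5SL was the lowest with shTIP60-C, with 28 against 24, M -0.77 (-1.61 to 0.08). NDUFV2-AS1, antisense to NDUFV2, had 9 against 16 with shTIP60-B, M -0.83 (-2.19 to 0.44), and NDUFA6-AS1 had 360 against 363, M 0.39. NDUFA6-AS1 starts head to head with NDUFA6 in RefSeq, a complex I gene by name, and how the reads divide between them was not tested. NDUFB2-AS1, NDUFC2-KCTD14 and ATP5S lay between -0.28 and -0.04 with shTIP60-B and between 0.01 and 0.18 with shTIP60-C.

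Set side by side, the complex medians with shTIP60-B spanned 1.23 log2 units, from complex II at -1.05 to complex I at 0.18, and with shTIP60-C 0.33, from complex III at -0.15 to complex II at 0.18. After subtraction of 10 Mb window medians the shTIP60-B medians were 0.04 for complex I, -0.58 for complex II, -0.43 for complex III, 0.06 for complex IV and 0.09 for complex V. Complexes II and III were still the 2 lowest, and the span fell to 0.67. With 1 library per group the differences between complexes have no test.

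**Figure D5:**
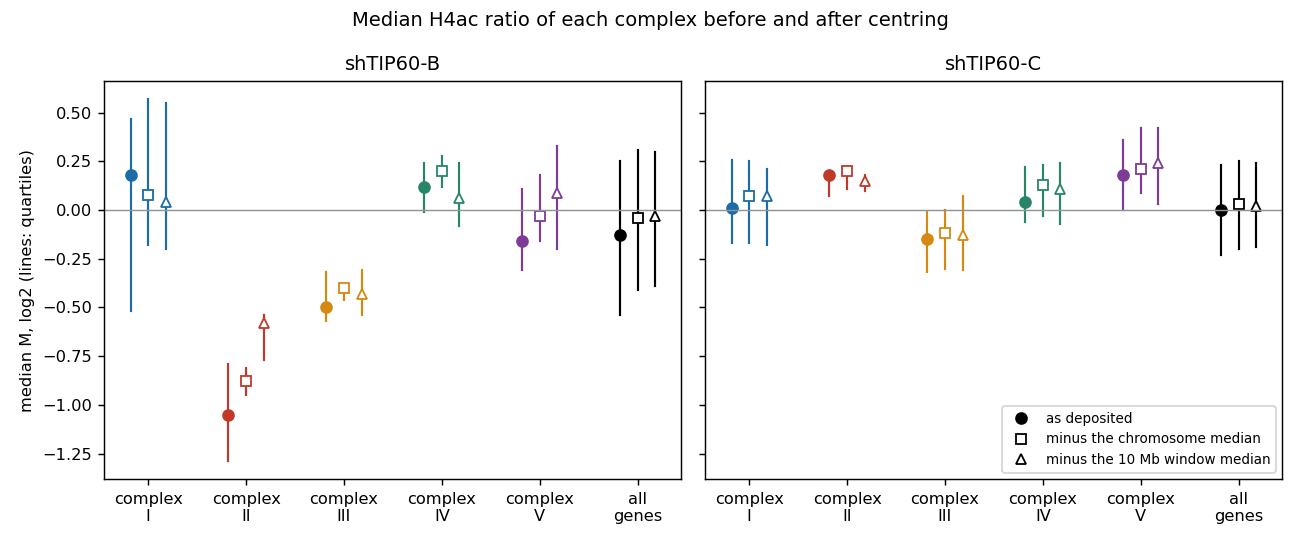
Median M of each complex and of all genes as deposited (circles), after subtraction of the chromosome median (squares) and of the 10 Mb window median (triangles); lines join the quartiles. With shTIP60-B the complex II median moves from -1.05 to -0.88 and -0.58, and complex III from -0.50 to -0.40 and -0.43, while all genes move from -0.13 to -0.04 and -0.03.

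M also moved with signal in the shTIP60-B table. With all genes ranked by mean signal and cut into 4 groups of equal size, the median M was -0.39 in the lowest group, then -0.17, -0.10 and 0.01 in the highest. With shTIP60-C these were -0.02, 0.01, 0.01 and -0.00. SDHB lies in the lowest group, with a mean log2 signal of 3.92, and the complex III promoters had a median of 7.32 against 6.58 for all genes. The part of signal in the complex medians was not tested.

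Members were also split by the core NRF1 motif, a split made with the ratios known. With shTIP60-B the 11 members holding it had a median M of -0.48 and the 41 without it 0.01. Over all genes with a promoter sequence the medians were -0.15 for 1247 with the motif and -0.13 for 7925 without. With shTIP60-C they were 0.01 for 10 members with it and 0.10 for 44 without, and 0.00 and -0.00 for all genes. Of the 11, SDHA and SDHD of complex II and UQCRFS1, UQCR11 and UQCRC1 of complex III make up 5, so the motif and the complex overlap. With shTIP60-B the others were NDUFA8 at 1.05, NDUFB4 at 0.28, NDUFA11 at 0.20, ATP5I at -0.48, NDUFA12 at -0.57 and ATP5O at -0.60. The parts of the motif and of the complex were not tested.

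The other genes of the pathway were taken from fixed lists. Of the electron carriers, CYC1, the cytochrome c1 of complex III, had M -0.36 with shTIP60-B (70 reads against 103) and -0.11 with shTIP60-C (179 against 101). CYCS, cytochrome c itself, had 0.18 (144 against 155) and -0.17 (258 against 153). Neither passed the rule.

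Of 50 assembly factors and related genes (among the latter ATPIF1, LRPPRC and TACO1), 42 had a promoter region in each table. With shTIP60-B 1 rose, against 1.29% of all genes, 0 fell, against 3.53%, and 41 did neither. The median M was -0.09, against -0.13 for all genes, so neither the counts nor the median lay far from the background. The one that rose was NDUFAF6, a complex I assembly factor, with 209 reads against 130, M 1.02 (0.69 to 1.34) and a deposited p of 3e-11, and it had 352 against 122 with shTIP60-C, M 0.61. COX14, which acts early in complex IV assembly, was the lowest with 9 against 32, M -1.79 (-3.04 to -0.69), and was at 0.06 with shTIP60-C. SDHAF1, an assembly factor of complex II, had 30 against 65, M -1.01 (-1.68 to -0.36), and 111 against 64 with shTIP60-C, M -0.16. With shTIP60-B the COX14 and SDHAF1 regions were in the control peak list alone, a way of entry that favours lower values. With shTIP60-C none of the 42 passed, where 0.147% of all genes rose and 0.0433% fell. The median was -0.06, against 0.00 for all genes, with a lowest value at TTC19 (-0.81, complex III) and a highest at ATPAF2 (0.74, complex V).

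Of 14 regulators of these genes, 10 were measured with shTIP60-B and 1 rose, against 1.29% of all genes. This was PPRC1, a coactivator related to PGC-1 alpha, with 877 reads against 530, M 1.25 (1.09 to 1.41) and a deposited p of 9.6e-68. With shTIP60-C it had 1561 against 537, M 0.67 (0.52 to 0.81), short of a fold of 2. TFAM, which packages and transcribes mitochondrial DNA, had 146 against 92 with shTIP60-B, M 0.95 (0.56 to 1.34), and 174 against 90 with shTIP60-C, M 0.01. YY1 was the lowest with shTIP60-B, with 166 against 313 and M -0.61, and SP1 was the lowest with shTIP60-C, at -0.46. NRF1 itself was at -0.12 and -0.16. PPARGC1B, the PGC-1 beta coactivator, was the highest with shTIP60-C, with 346 against 111 and M 0.72 (0.40 to 1.04), and none of the 12 measured passed with that hairpin, where 0.147% of all genes rose and 0.0433% fell.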

How the data were processed

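Chromatin of H1975 cells was crosslinked for 10 min with 1% formaldehyde, and libraries were read in pairs of 75 bp, per the labels' protocols. Per the submitters' processing notes, the tools were Bowtie2 and MACS 1.4.2, on hg19. The tables' names refer to MAnorm, a method that scales a pair of libraries to each other on peaks they share, and their header to a HOMER annotation; no version is given in the sources used here. Each table holds deposited read counts of the knockdown and the control, the authors' log2 ratio M and mean log2 signal A, and a deposited −log10 p-value with no adjustment over regions. Which count column is the knockdown was read from the comparison in the header. Infinite p (11 regions with shTIP60-B, 3 with shTIP60-C) counted as past the threshold, missing p (11 and 1) as not past it.

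The tables hold 63299 and 66546 regions, a common region being listed once for each peak list. Reads summed over these regions were 5508475 (knockdown) and 6706229 (control) in the shTIP60-B table, then 13429202 and 7043106 in the other. Of a gene's promoter regions, the one with the most reads (knockdown plus control) was used. Coordinates of regions are hg19. Promoter sequences were matched by Entrez ID and come from RefSeq on GRCh38.p14; 12 members had none. Chromosome and 10 Mb window medians were taken over all regions (windows with at least 50). Python 3.11.15, pandas 2.3.3, numpy 2.4.6, scipy 1.17.1 and matplotlib 3.10.9 were used. The call thresholds were also tried on simulated counts with changes larger than the rule asks. There the ratios were scaled by the table totals and an exact binomial p took the place of the deposited p, so the rule as used was not tested.

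The members, complexes and lists were chosen with earlier results of these data known. Named genes are all members past the rule, the 5 highest and 5 lowest per hairpin, the highest, the lowest and the most read of each complex, all of complex II, members in 1 table alone, members that are no subunit, and of the other pathway genes those past the rule and the extremes of each group. Other members are named to complete a complex or a comparison, after their values were seen. Alternatives for the region per gene, distance, scaling, centring, filters and thresholds were tried.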

Additional observations from a re-analysis of the deposited data

How the results depend on the processing

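Of the recomputed values of the set (medians, counts past the rule and spans of complex medians), 86 stayed close to the reported ones and 10 moved. For shTIP60-B the median M of members was -0.15 with a limit of 500 bp, -0.01 with ratios scaled by the table totals and 0.01 after subtraction of 10 Mb window medians, against -0.06. The number of its members past the rule, 2 as reported, was 1 with the mean M over all regions of a gene (SDHC), 1 with chromosome centring and 1 with window centring (ATP5A1 in both), and 4 with a deposited p of at most 0.001 (SDHC, NDUFS7, ATP5A1 and NDUFS8). The span of its complex medians was 0.67 with window centring, against 1.23. For shTIP60-C the median M was 0.08 with chromosome centring and 0.09 with window centring, against 0.03. No value changed sign while called. Of 110 recomputed complex medians 102 stayed close, and of 594 values of single subunits 578 did. With 1 library per group the spread between cultures is unknown, and at the lowest counts the interval is wide (SDHB, 9 reads against 23, -2.62 to -0.16). No paired analysis was possible because each group holds 1 library.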
